A study of Mus musculus with 2 samples.

Results

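Collagen-modifying and crosslinking enzymes were measured by RNA sequencing of brown adipose tissue, a fat that burns fuel for heat, in knockout and control mice. The set was a list of 10 genes taken by symbol: the prolyl 4-hydroxylase alpha subunits P4ha1, P4ha2 and P4ha3, the lysyl hydroxylases Plod1, Plod2 and Plod3, the collagen chaperone Serpinh1, and the lysyl oxidases Lox, Loxl1 and Loxl2. All 10 were found among the 16174 genes listed in either library. At least 1 FPKM (read fragments per kilobase of RNA and per unit of library size) was reached by 9 of them, in both libraries. P4ha3 stayed below that level in both.

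The study had 2 libraries, 1 per genotype. D3BKO came from D3Bfl/fl-UCP1-Cre+/- mice, which carry floxed D3B alleles together with Cre under the Ucp1 promoter, active in brown adipocytes. D3BWT came from D3Bfl/fl mice with no Cre in the label. Both were C57BL/6, 45 weeks old and fed chow, and the series title calls the mice female. D3B is read as Dnmt3b, a DNA methyltransferase, from knowledge of the study. The labels do not say how many mice went into a library. Genotype cannot be told apart from the presence of Cre or from the sequencer lane, which was lane 1 for D3BKO and lane 2 for D3BWT.

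The D3BKO library held 10068359 expected counts and the D3BWT library 9666528. Dnmt3b itself had 7 counts in D3BKO and 15 in D3BWT, and the 95% counting interval of its FPKM ratio, 0.159 to 1.20, included 1. The brown fat gene Ucp1 was at 4271 FPKM in D3BKO and 4987 FPKM in D3BWT. With 1 library per genotype the spread between mice is unknown and no test between genotypes can be made. Each interval below is a 95% interval of the read counts, covers counting error only, and compares these 2 libraries. The log2 ratio of a gene is log2((FPKM + 1) in D3BKO / (FPKM + 1) in D3BWT), which understates the difference of genes with low values, and a plain ratio is of FPKM with no pseudocount. By the 2-fold rule a gene was counted as higher from a log2 ratio of 1 upwards and as lower from -1 downwards, provided that the counting interval excluded equality. In bulk tissue, fewer cells of a type and less RNA per cell cannot be told apart.

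Collagen is processed in steps. In the endoplasmic reticulum, prolyl 4-hydroxylases add the hydroxyl groups that keep the triple helix stable at body temperature, lysyl hydroxylases modify lysines that later carry sugars and crosslinks, and the chaperone encoded by Serpinh1 holds the folded helix until export. Outside the cell, copper-dependent lysyl oxidases convert lysines of collagen and elastin to aldehydes, which then join neighbouring molecules. In adipose tissue these crosslinks set the stiffness of the matrix around the adipocytes.

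The prolyl 4-hydroxylase alpha subunits, which carry the catalytic site, showed the largest ratios of the set. P4ha2 had 10.15 FPKM in D3BKO and 4.07 FPKM in D3BWT, from 228 and 88 expected counts. Its D3BKO to D3BWT ratio was 2.49 (1.94 to 3.23), and it was the 1 member counted as higher by the 2-fold rule, which 0.902% of all 11746 tested genes met in that direction. P4ha1 had 10.04 FPKM in D3BKO and 5.82 FPKM in D3BWT, from 406 and 226 counts, a ratio of 1.73 (1.46 to 2.04). The log2 ratios were 1.14 for P4ha2 and 0.69 for P4ha1. A larger log2 ratio was found in 0.570% of tested genes for P4ha2 and in 3.12% for P4ha1.

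The mix of alpha subunits also differed between the libraries. P4ha2 made up 50.0% of the summed FPKM of the 3 alpha subunits in D3BKO and 41.0% in D3BWT, and P4ha1 made up 49.5% in D3BKO and 58.6% in D3BWT. The log2 of the plain ratio, with no pseudocount, was larger for P4ha2 than for P4ha1 by 0.53 (0.11 to 0.96). This comparison within each library is free of the scaling between them. The sum of the alpha subunits was 20.3 FPKM in D3BKO and 9.93 FPKM in D3BWT, a ratio of 2.04. P4ha3, the third alpha subunit, had 2 counts in D3BKO and 1 count in D3BWT. Both are below the 3 counts that a count of 0 allows, so no ratio is given.

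The partner of these subunits differed less. P4hb, the beta subunit and a disulfide isomerase shared with other enzymes, was at 62.4 FPKM in D3BKO and 50.4 FPKM in D3BWT, a ratio of 1.24 (1.15 to 1.34). Per 100 FPKM of P4hb, P4ha2 stood at 16.3 FPKM in D3BKO and 8.07 FPKM in D3BWT, which is 2.01 times as much (1.56 to 2.61). The same measure for P4ha1 was 16.1 FPKM in D3BKO and 11.5 FPKM in D3BWT, 1.39 times as much (1.17 to 1.67).

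The promoters of P4ha1 and P4ha2 are shown because these members had the largest ratios, with that of the lysyl hydroxylase Plod3, whose interval included 1, for contrast. Each line gives the 250 bases before the annotated start from RefSeq, build GRCm38.p6, read 5′ to 3′ on the strand of the gene. Capitals mark ACGTG and GCGTG on either strand, the core letters that hypoxia-inducible factors are known to bind.
P4ha1, chr10:59323046-59323295, + strand: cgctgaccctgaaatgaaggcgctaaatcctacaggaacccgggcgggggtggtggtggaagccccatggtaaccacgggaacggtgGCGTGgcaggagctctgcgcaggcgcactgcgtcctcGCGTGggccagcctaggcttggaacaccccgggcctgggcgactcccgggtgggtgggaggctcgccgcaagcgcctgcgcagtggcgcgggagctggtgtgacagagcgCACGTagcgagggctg
P4ha2, chr11:54100674-54100923, + strand: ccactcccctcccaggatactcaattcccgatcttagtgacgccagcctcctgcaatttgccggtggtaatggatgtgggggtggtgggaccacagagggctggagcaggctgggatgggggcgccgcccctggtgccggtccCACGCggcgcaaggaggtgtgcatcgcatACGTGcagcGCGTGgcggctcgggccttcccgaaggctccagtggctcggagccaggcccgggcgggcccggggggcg
Plod3, chr5:136986769-136987018, + strand: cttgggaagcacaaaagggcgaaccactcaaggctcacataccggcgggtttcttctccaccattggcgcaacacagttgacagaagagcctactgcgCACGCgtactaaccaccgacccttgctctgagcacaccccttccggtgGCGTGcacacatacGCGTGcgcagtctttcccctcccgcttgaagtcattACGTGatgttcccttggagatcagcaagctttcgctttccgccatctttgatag
The window of P4ha1 held 1 ACGTG and 2 GCGTG, and that of P4ha2 also held 1 and 2. The window of Plod3 held 1 ACGTG and 3 GCGTG, more than either of the other windows, beside a ratio of 1.11. At least 1 such match occurred in 38.6% and at least 3 in 6.58% of 32851 RefSeq promoter windows of the same length. A match is a description of the letters and not evidence of binding. Of the other members with a window, Plod1, whose interval also included 1, held 1 match beside a ratio of 1.10. Serpinh1 held 1 match beside a ratio of 1.17, and P4ha3 held 0. A link between matches and ratios was not tested. Plod2, Lox, Loxl1 and Loxl2 are named without a sequence.

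**Figure D1:**
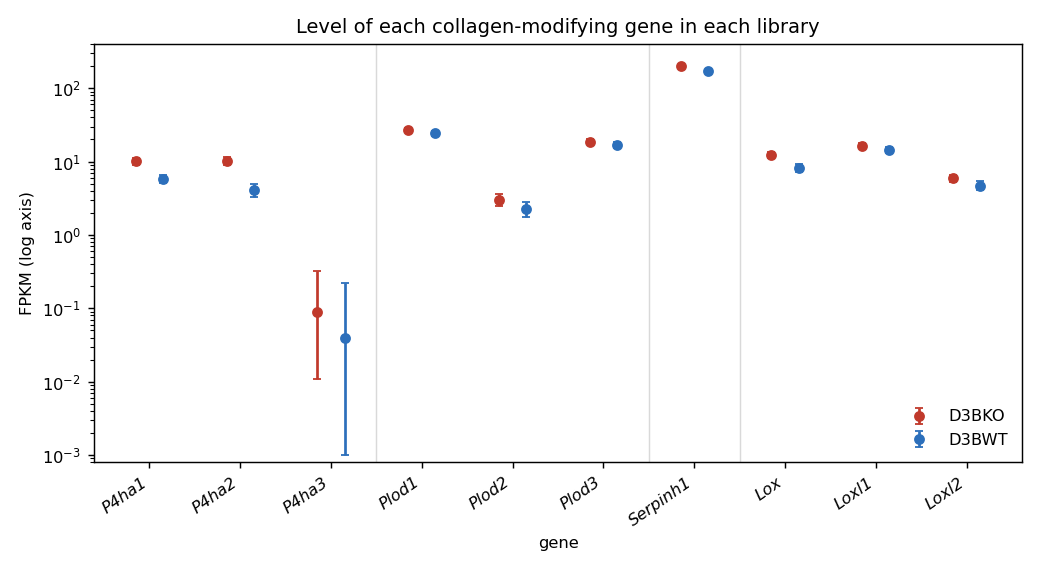
Level of each of the 10 genes, in FPKM on a log axis, in the D3BKO library (red, left of each pair) and the D3BWT library (blue, right). Points are the single library's value and bars are 95% Poisson counting intervals. Serpinh1 sits highest, at 203 FPKM in D3BKO and 173 FPKM in D3BWT, P4ha3 lowest, and the intervals of P4ha1, P4ha2, Lox and Serpinh1 do not overlap between the libraries.

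Of the lysyl hydroxylases, Plod1 and Plod3 were close between the libraries. Plod1, the most abundant of the family, had 26.7 FPKM in D3BKO and 24.2 FPKM in D3BWT, from 865 and 755 counts, a ratio of 1.10 (0.997 to 1.22). Plod3, which can also attach sugars to hydroxylysine, had 18.6 FPKM in D3BKO and 16.8 FPKM in D3BWT, from 604 and 524 counts, a ratio of 1.11 (0.983 to 1.25). Both intervals included 1, and they leave room for ratios of up to 1.22 for Plod1 and 1.25 for Plod3. Their lower ends lie close to 1, so whether they include it depends on the scaling between the libraries.

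Plod2 hydroxylates the telopeptide lysines, which yields the hydroxylysine type of crosslink, and is known to be raised in fibrotic tissue. It had 3.01 FPKM in D3BKO and 2.23 FPKM in D3BWT, from 110 and 79 counts. Its ratio of 1.35 had an interval of 1.002 to 1.83 and excluded 1 by a small margin. The 3 pairs of lysyl hydroxylases had plain ratios whose log2 values differed by 0.01 to 0.29, and each of these 3 intervals included 0. Plod2 made up 6.24% of the family's FPKM in D3BKO and 5.16% in D3BWT. In RefSeq, the span of Plod2 overlaps the locus B430319G15Rik and that of Plod3 overlaps Znhit1. Whether their exons overlap was not examined, and no source used here says that the reads were counted by strand. The counts of Plod2 and Plod3 were whole, so they show no sign of reads divided with another gene. Whether all reads of these pairs were kept apart is not known.

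Serpinh1, whose product is a collagen-specific chaperone of the serpin family, was by far the most abundant member. It had 203 FPKM in D3BKO and 173 FPKM in D3BWT, from 4459 and 3656 counts, above 96.1% and 95.5% of tested genes. Its ratio was 1.17 (1.12 to 1.23). The interval is narrow because of the depth, and the difference is small.

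Among the lysyl oxidases, Lox differed most. Lox, the founding member that crosslinks collagen and elastin, had 12.3 FPKM in D3BKO and 8.19 FPKM in D3BWT, from 441 and 282 counts, a ratio of 1.502 (1.29 to 1.75). Loxl1, which is needed for elastic fibre renewal, had 16.4 FPKM in D3BKO and 14.4 FPKM in D3BWT, from 544 and 458 counts, a ratio of 1.14 (1.006 to 1.30). Loxl2, which acts on the type IV collagen of basement membranes, had 5.91 FPKM in D3BKO and 4.70 FPKM in D3BWT, a ratio of 1.26 (1.06 to 1.495). The counts of Loxl2 were not whole, so they include reads divided with another gene and its ratio is uncertain.

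Within the family, the log2 of the plain ratio of Lox exceeded that of Loxl1 by 0.40 (0.12 to 0.68). It exceeded that of Loxl2 by 0.26, with an interval of -0.07 to 0.58 that included 0, and Loxl2 exceeded Loxl1 by 0.14 (-0.16 to 0.44). Lox therefore made up 35.5% of the family's FPKM in D3BKO and 30.0% in D3BWT, while Loxl1, the most abundant of the family in both libraries, made up 47.4% in D3BKO and 52.7% in D3BWT. The share of Loxl2 was 17.1% in D3BKO and 17.2% in D3BWT. Over the 3 families 7 pairs of members were compared, and the interval excluded 0 for P4ha2 with P4ha1 and for Lox with Loxl1. The share of such intervals over pairs of other genes was not computed. Of single tested genes, 18.2% had an interval of the ratio above 1 and 22.4% below 1. These pairs are thus not shown to be particular to the families.

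The order of the levels was alike at the top and changed in the middle. In FPKM, which is per length, both libraries ran Serpinh1, Plod1, Plod3, Loxl1, Lox, and ended with Plod2 and P4ha3. Between them came P4ha2, P4ha1 and Loxl2 in D3BKO, and P4ha1, Loxl2 and P4ha2 in D3BWT. Neighbours whose counting intervals overlapped were Plod3 with Loxl1, Lox with P4ha2, and P4ha2 with P4ha1 in D3BKO. In D3BWT they were Plod3 with Loxl1, P4ha1 with Loxl2, and Loxl2 with P4ha2.

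As a set, the 9 tested members had log2 ratios between 0.13 and 1.14, all above 0, a side on which 45.9% of all tested genes lay. Their median was 0.28, beside -0.03 over all tested genes. The list was chosen with earlier results of these data known, so the shares in this paragraph describe the set and test nothing. The counting interval of the ratio lay above 1 for 7 of the 9, beside 18.2% of all tested genes, and below 1 for none, beside 22.4%. Plod1, Plod2, Plod3 and Loxl1 had a lower end close to 1, so the first of these counts depends on the scaling between the libraries. By the 2-fold rule P4ha2 was counted as higher and 0 members as lower, beside 0.673% of tested genes in the lower direction. At 1.5-fold on the same scale P4ha1 and P4ha2, 2 of 9, were counted as higher, beside 4.35% of tested genes, and 0 as lower, beside 3.42%.

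**Figure D2:**
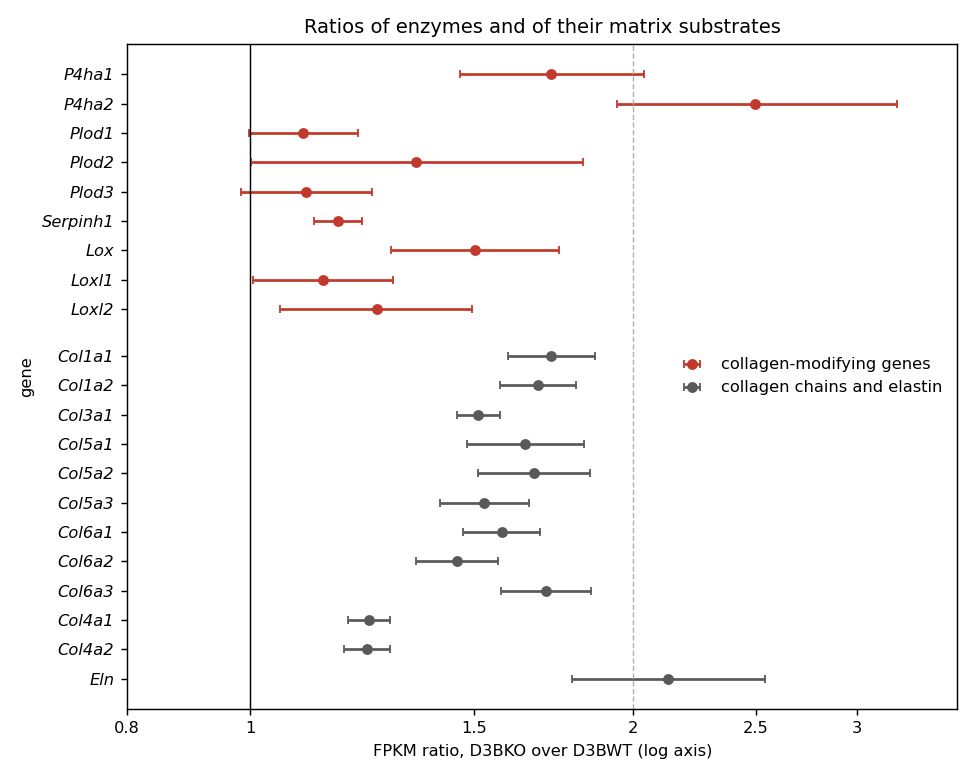
FPKM ratio of D3BKO over D3BWT on a log axis for the 9 tested collagen-modifying genes (red) and for 11 collagen chains and elastin (grey). Points are ratios of the 2 libraries, bars are 95% counting intervals, the solid line marks 1 and the dashed line 2. Chains of types I, III, V and VI lie between 1.45 and 1.72, to the right of the lysyl hydroxylases, Serpinh1, Loxl1 and Loxl2, and P4ha2 lies to the right of every chain.

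The substrates of these enzymes were set beside them. All 12 tested genes of the substrate list had an interval above 1, beside 18.2% of all tested genes, with a median log2 ratio of 0.64. At 1.5-fold 8 were counted as higher, beside 4.35%. The chains named by the size of their log2 ratio were Col1a1 with a ratio of 1.72 (1.59 to 1.87), Col1a2 with 1.68 (1.57 to 1.81), Col6a3 with 1.71 (1.58 to 1.85), Col5a2 with 1.67 (1.51 to 1.85) and Col5a1 with 1.65 (1.48 to 1.83). Eln, which encodes elastin, had 2.13 (1.79 to 2.54). Its log2 ratio of 0.96 was just short of the 2-fold rule, and it reached 1.04 to 1.08 under 4 of 7 alternative settings, where Eln was counted as higher. The type IV chains Col4a1 and Col4a2, named after their values were seen, had 1.24 (1.19 to 1.29) and 1.24 (1.18 to 1.29).

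Relative to the fibrillar chains, 5 of the 9 tested members were lower and 1 was higher in the knockout library, beside 82.9% of 11716 tested genes lower and 1.69% higher by the same interval. The median relative ratio of these genes was 0.619, so a lower level relative to these chains is what most genes showed and is not particular to the enzymes. Col1a1, Col1a2 and Col3a1 together had 203 FPKM in D3BKO and 128 FPKM in D3BWT, a ratio of 1.58. Per 100 FPKM of these 3 chains, Plod1 stood at 13.1 FPKM in D3BKO and 18.9 FPKM in D3BWT, a relative ratio of 0.695 (0.628 to 0.770). Plod3 stood at 9.15 FPKM in D3BKO and 13.1 FPKM in D3BWT, a relative ratio of 0.6997 (0.620 to 0.790). The 5 whose interval lay below an equal share were Plod1, Plod3, Serpinh1, Loxl1 and Loxl2.

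Serpinh1 stood at 99.98 FPKM per 100 FPKM of these chains in D3BKO and at 135 FPKM in D3BWT, a relative ratio of 0.741 (0.702 to 0.781). Loxl1 had a relative ratio of 0.721 (0.634 to 0.819) and Loxl2 of 0.794 (0.668 to 0.945). The reverse was seen for P4ha2, with 5.0 FPKM in D3BKO and 3.17 FPKM in D3BWT per 100 FPKM of chains, a relative ratio of 1.58 (1.23 to 2.02). P4ha1, Plod2 and Lox had intervals that held 1, with relative ratios of 1.09 (0.924 to 1.29), 0.853 (0.638 to 1.14) and 0.949 (0.815 to 1.11). These relative values do not depend on the scaling between the libraries.

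The choice of chains changed the calls of 2 members. Against Col1a1 alone the interval of each member lay on the side it had against the 3 chains. Against all 11 tested chains, whose sum had a ratio of 1.45, the interval of Loxl2 held an equal share at 0.868 (0.731 to 1.03) and that of P4ha1 lay above it at 1.19 (1.01 to 1.40). Against elastin, the other substrate of the lysyl oxidases, the relative ratios were 0.705 (0.561 to 0.885) for Lox, 0.535 (0.433 to 0.662) for Loxl1 and 0.590 (0.463 to 0.751) for Loxl2. Only 1.19% of tested genes had a larger log2 ratio than Eln, so a lower level relative to it is not particular to these enzymes. The share of all genes was computed against the 3 fibrillar chains only, not against Col1a1 alone, the 11 chains, Eln or P4hb.

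**Figure D3:**
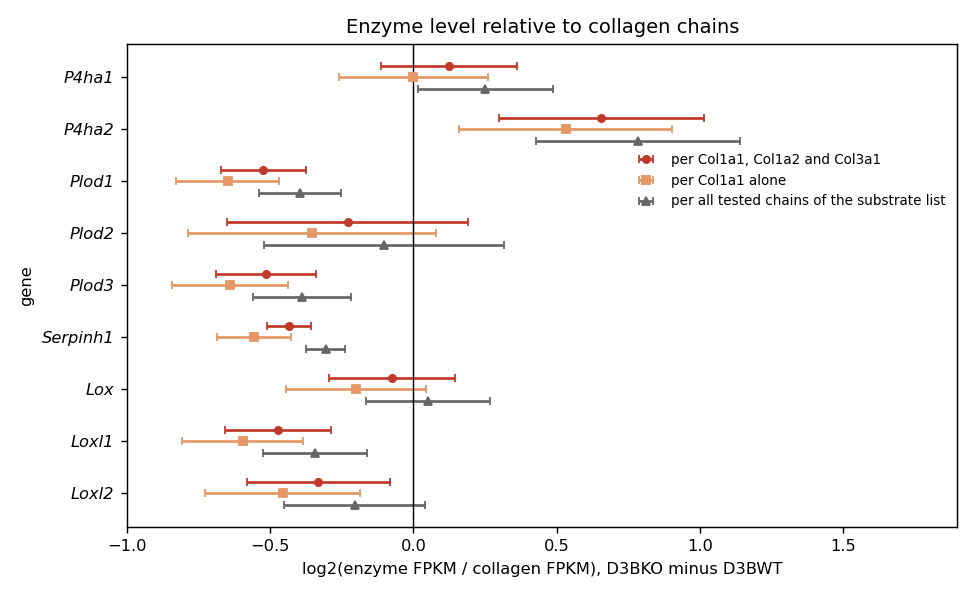
Difference between D3BKO and D3BWT in log2(enzyme FPKM / collagen FPKM) for the 9 tested members, against 3 choices of collagen chains in the denominator. Bars are 95% counting intervals and the vertical line marks an equal share in both libraries. Plod1, Plod3, Serpinh1 and Loxl1 lie left of the line and P4ha2 right of it under each choice of chains.

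The other enzymes and chaperones of collagen production were split in direction. Of 29 listed genes 24 were tested, 16 with a log2 ratio above 0 and 8 below, and the median was 0.12. None of these 24 was counted at 2-fold, beside 0.902% of all tested genes higher and 0.673% lower. At 1.5-fold 2 were counted as higher, beside 4.35%, and 1 as lower, beside 3.42%. The interval lay above 1 for 10, beside 18.2%, and below 1 for 3, beside 22.4%. Fkbp10, a prolyl isomerase that works with lysyl hydroxylation of telopeptides, had 3.79 FPKM in D3BKO and 1.85 FPKM in D3BWT, a ratio of 2.05 (1.43 to 2.98). Pcolce2, an enhancer of procollagen C-proteinase, had 17.4 FPKM in D3BKO and 10.8 FPKM in D3BWT, a ratio of 1.61 (1.34 to 1.94).

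The related enhancer Pcolce was at 143 FPKM in D3BKO and 95.6 FPKM in D3BWT, a ratio of 1.501 (1.40 to 1.61). Sec24d, a coat protein of the vesicles that export procollagen, had 11.5 FPKM in D3BKO and 7.33 FPKM in D3BWT, a ratio of 1.57 (1.34 to 1.83). Sparc, a collagen-binding matricellular protein, had 819 FPKM in D3BKO and 580 FPKM in D3BWT, a ratio of 1.41 (1.38 to 1.44). The gene counted as lower was Colgalt2, a galactosyltransferase of hydroxylysine, with 0.34 FPKM in D3BKO and 1.08 FPKM in D3BWT, a ratio of 0.315 (0.159 to 0.588) that rests on 14 and 42 counts. Its more abundant relative Colgalt1 had a ratio of 1.09 (0.965 to 1.23).

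The complex that 3-hydroxylates proline had ratios on both sides of 1. These genes are outside the rule for naming and were chosen after their values were seen. Crtap had 25.0 FPKM in D3BKO and 29.3 FPKM in D3BWT, a ratio of 0.853 (0.746 to 0.975). Ppib, the cyclophilin of that complex, had 108 FPKM in D3BKO and 129 FPKM in D3BWT, a ratio of 0.833 (0.765 to 0.908). P3h1, its hydroxylase, had 5.01 FPKM in D3BKO and 4.12 FPKM in D3BWT, a ratio of 1.22 (0.956 to 1.55) whose interval included 1.

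Genes that supply copper or scaffold the lysyl oxidases were mixed as well. Of 7 tested genes 4 had a log2 ratio above 0 and 3 below, with a median of 0.09. None was counted at 1.5-fold, beside 4.35% of all tested genes higher and 3.42% lower. Atox1, the copper chaperone, had 263 FPKM in D3BKO and 341 FPKM in D3BWT, a ratio of 0.771 (0.713 to 0.833). The copper importer Slc31a1 had a ratio of 1.18 (1.02 to 1.35), and Atp7a, the pump that loads lysyl oxidases with copper, 1.12 (0.848 to 1.49). Fbln5, which tethers Loxl1 to elastic fibres, had a ratio of 1.32 (1.09 to 1.60), and Efemp2, which does so for Lox, 1.13 (0.841 to 1.52). Postn, a matricellular protein that promotes activation of Lox, was at 36.1 FPKM in D3BKO and 45.8 FPKM in D3BWT, a ratio of 0.787 (0.727 to 0.852).

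P4ha1, P4ha2, Plod2 and Lox are known as genes that hypoxia induces, so other genes of that kind were listed. Of 14 tested genes 10 had a log2 ratio above 0 and 4 below, beside 45.9% of all tested genes above 0, and the median was 0.16. The interval lay above 1 for 8, beside 18.2% of all tested genes, and below 1 for 3, beside 22.4%. The summed FPKM of the list had a ratio of 1.06. At 1.5-fold 1 was counted as higher, beside 4.35% of all tested genes. That gene was Adm, a vasodilator peptide, with 5.23 FPKM in D3BKO and 2.80 FPKM in D3BWT, a ratio of 1.87 (1.23 to 2.88). The pyruvate dehydrogenase kinase gene Pdk1 had a ratio of 1.36 (1.24 to 1.48), Ddit4, a brake on mTOR, 1.37 (1.20 to 1.57), and the glucose transporter Slc2a1 1.45 (1.06 to 1.98). The interval of Ankrd37, 0.860 to 2.53, included 1. Vegfa, the angiogenic factor, lay on the other side with 99.5 FPKM in D3BKO and 126 FPKM in D3BWT, a ratio of 0.791 (0.754 to 0.829).

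TGF-beta is a known inducer of collagen and lysyl oxidase genes. Of 9 tested genes that respond to it, 7 had a log2 ratio above 0 and 2 below, beside 45.9% of all tested genes above 0. The median was 0.48, beside -0.03 over all tested genes. At 1.5-fold 4 were counted as higher, beside 4.35% of all tested genes, and at 2-fold 3, beside 0.902%. The 3 were Ccn2, a matricellular growth factor partner, with a ratio of 3.36 (2.67 to 4.28), Fn1, which encodes fibronectin, with 2.96 (2.70 to 3.26), and the smooth muscle actin gene Acta2 with 2.10 (1.81 to 2.43). Acta2, with a log2 ratio of 1.004, was not counted with a pseudocount of 5, where it was at 0.81. Thbs1, a thrombospondin, had a ratio of 1.58 (1.39 to 1.80), Tgfbi 1.44 (1.21 to 1.71) and the smooth muscle gene Tagln 1.28 (1.08 to 1.54). Smad7, a feedback inhibitor of the pathway that was named with its value known, had a ratio of 1.03 (0.726 to 1.47), and Skil, another, had 0.903 (0.786 to 1.04).

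**Figure D4:**
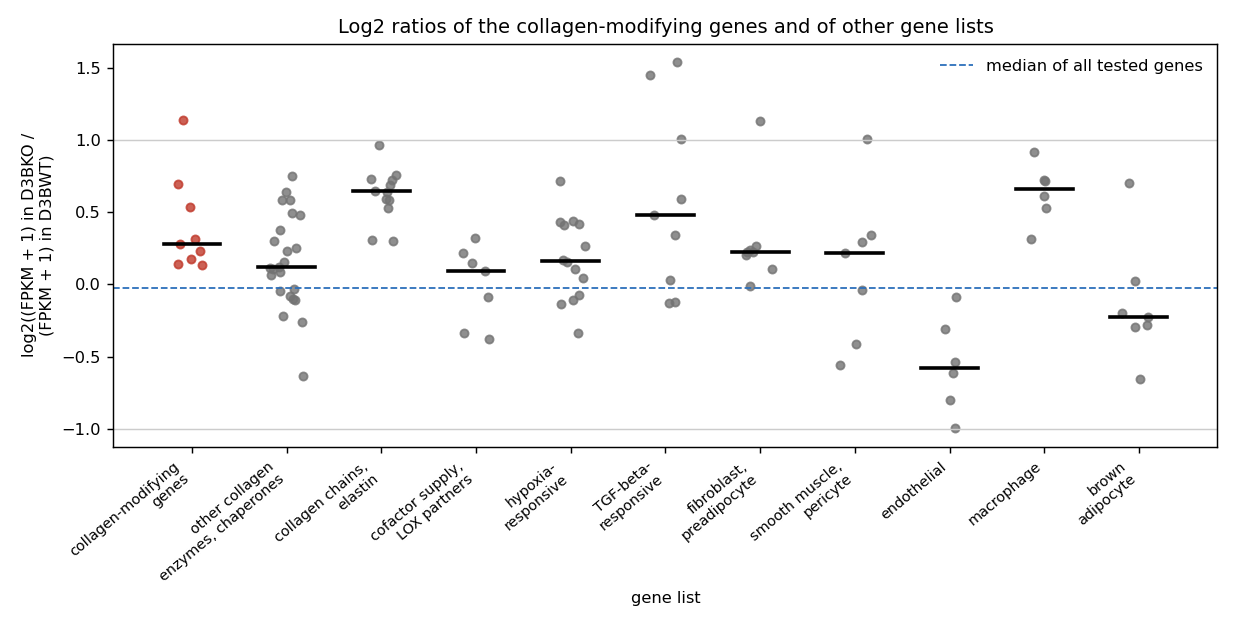
Log2((FPKM + 1) in D3BKO / (FPKM + 1) in D3BWT) of each tested gene by list, with the collagen-modifying genes in red. Bars are list medians, the dashed line is the median of all tested genes at -0.03 and the grey lines mark 1 and -1. The collagen-modifying genes lie between 0.13 and 1.14, with a median of 0.28 beside 0.64 for the collagen chains with elastin and -0.57 for the endothelial markers.

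Cell markers moved between the libraries too. Of the 11746 tested genes, 5393 (45.9%) had a log2 ratio above 0 and 6316 below, with a median of -0.03. The interval lay above 1 for 18.2% of them and below 1 for 22.4%. Fibroblast and preadipocyte markers summed to 375 FPKM in D3BKO and 315 FPKM in D3BWT, with 7 of 8 log2 ratios above 0 and a median of 0.23, near the 0.28 of the members. Of these 8 markers Mfap5, a microfibril protein, was counted as higher at 2-fold, at 23.3 FPKM in D3BKO and 10.1 FPKM in D3BWT, a ratio of 2.31 (1.88 to 2.84). That rule was met by 0.902% of all tested genes in that direction. Macrophage markers summed to 137 FPKM in D3BKO and 96.0 FPKM in D3BWT, with 6 of 6 above 0 and a median of 0.66. Smooth muscle and pericyte markers summed to 138 FPKM in D3BKO and 121 FPKM in D3BWT, with 4 of 7 tested above 0 and a median of 0.22. These markers were split, with intervals above 1 for 4, namely Acta2, Tagln, Myh11 and Rgs5, and below 1 for 2. The 2 were Pdgfrb at 0.728 (0.636 to 0.832) and Kcnj8 at 0.664 (0.571 to 0.772). Acta2 and Tagln are also in the TGF-beta list. Endothelial markers summed to 143 FPKM in D3BKO and 213 FPKM in D3BWT, with 6 of 6 below 0 and a median of -0.57. Brown adipocyte markers had 5 of 7 below 0 and a median of -0.22. Red blood cell markers had a summed ratio of 0.980. Of 7 skeletal muscle markers 1 was tested, Acta1, at 2.71 FPKM in D3BKO and 1.38 FPKM in D3BWT, Myh1, Myh4 and Tnnt3 were at 0 in D3BKO and at 2 to 3 counts in D3BWT, and Ckm was listed in neither library. The part of these shifts in the values of the collagen-modifying genes was not tested.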

How the data were processed

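RNA was polyadenylated RNA of brown adipose tissue, per the labels' protocols. The authors deposited 1 table per library with a transcript length, an expected count (estimated reads per gene, with reads of several genes divided among them) and FPKM, per the file headers. RSEM and the build mm9 are named in the submitters' processing notes. The aligner name was not given in the sources used here. A gene not listed in a library was set to 0. Entrez identifiers were matched to RefSeq symbols of GRCm38.p6 for 16134 of 16174 genes. Since builds differ, coordinates are given for RefSeq promoters only.

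The rule of size was applied to genes that reached 1 FPKM in a library. Ratio intervals are Clopper-Pearson intervals, exact and conditional on the sum, of expected counts rounded to whole numbers, scaled to FPKM. Intervals of levels are exact Poisson, and those of differences and relative ratios use the sum of inverse counts. Reads copied by PCR are not independent molecules, so intervals may be too narrow. The code (Python 3.11.15, scipy 1.17.1) was tested on simulated data. The members and gene lists were chosen with earlier results of these data known. The genes named are all members, Dnmt3b, up to 6 tested genes per list with the largest absolute log2 ratio and any list gene counted at 2-fold. Other genes were named with their values known: P4hb, Colgalt1 and those marked so in the text. Alternatives were pseudocounts of 0.1 and 5, other filters, folds, scalings and collagen chains, CPM (counts scaled to library size) and removal of the median of genes of like length in 20 bins. In 1 list, a gene is not reported here and was left out of its counts.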

Additional observations from a re-analysis of the deposited data

How the results depend on the processing

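The log2 ratios of the 9 tested members stayed above 0 in all 63 recomputed values, 7 per member. The sign had little room to change. A pseudocount cannot change it, and the scalings moved the median of all tested genes by less than the smallest member value, 0.13. The count of 63 is therefore no support for the direction. P4ha2 ranged from 0.74 to 1.30, P4ha1 from 0.48 to 0.78, Lox from 0.39 to 0.61 and Serpinh1 from 0.22 to 0.32. P4ha2 was counted as higher under 6 of 7 alternatives and was not with a pseudocount of 5, where 0 members were. Acta2 likewise lost its call with a pseudocount of 5, and Eln gained one with a pseudocount of 0.1, with CPM and with both rescalings to the same FPKM total. At 1.5-fold 2 members were counted as higher and at 4-fold 0. Of the other collagen enzymes, 1 (Colgalt2) was counted as lower with a pseudocount of 0.1, with CPM and at 1.5-fold, and 2 as higher at 1.5-fold. Over all tested genes, 281 were higher and 196 lower with a pseudocount of 0.1, 15 and 14 with 5, 42 and 27 with a mean of at least 5 FPKM, 511 and 402 at 1.5-fold, and 1 and 3 at 4-fold, against 106 and 79 in the comparison as reported. With CPM 179 were higher and 110 lower. Removing the length trend gave 137 higher and 61 lower, 69.2% higher against 57.3%. The rescalings to the same FPKM total gave 66.5%, and 67.3% when the 20 most abundant genes were left out of the total. Setting the median log2 ratio to 0 gave 61.2%, so a larger share of higher genes was not particular to the length setting. No scaling moved the median of all tested genes by more than 0.08. The log2 difference of Serpinh1 relative to collagen was -0.43 against the 3 chains, -0.56 against Col1a1 and -0.31 against 11 chains. The causes of these moves were not tested.

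No paired analysis was possible because each genotype had 1 library. For the same reason no library could be left out. Depth limits Plod2, with 110 and 79 counts, and P4ha3, with 2 and 1.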
